A study of Mus musculus with 3 samples.

Results

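The MS4A genes encode small membrane proteins that cross the membrane several times and sit beside receptors of blood cells. The 8 genes Ms4a1, Ms4a3, Ms4a4b, Ms4a4c, Ms4a6b, Ms4a6c, Ms4a6d and Ms4a7 were taken by symbol from a table of 23348 gene rows, and each symbol matched 1 row. They were followed in RNA of sorted thymic DN1 cells, a gate that is negative for lineage markers, positive for CD44 and negative for CD25, from mice aged 19 days on a mixed 129sv/C3H background. The first library came from gl/gl mice that carried the CD2-Ostm1 transgene (column gl/glTR of the table), with cells of 3 mice pooled. A second library came from osteopetrotic grey-lethal gl/gl mice, which are Ostm1-/-, also with 3 mice pooled. The third came from wild type mice, with 2 mice pooled. Each genotype has 1 library, which leaves every difference below without a replicate check or a p-value, and the cells in which the CD2 control elements drive the transgene are not described in the labels.

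Members of the family are best known as markers of blood cell types. Ms4a1 encodes CD20 of B cells, Ms4a2 the beta chain of the high-affinity IgE receptor of mast cells and basophils, Ms4a3 (HTm4) marks granulocyte and monocyte progenitors, Ms4a4b is found on T cells and natural killer cells, and Ms4a7 is found on macrophages. The proteins act as partners of other receptors, as the IgE receptor beta chain does when it amplifies signals through Lyn and Syk.

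Ostm1 had 5.35 FPKM (a fragment count corrected for the length of the transcript and the size of the library) in CD2-Ostm1 gl/gl and 19.6 FPKM in wild type, and its gl/gl value was 0. Cd44 had 64.7, 109 and 66.4 FPKM in the same 3 libraries, and Il2ra, which encodes CD25, had 4.03, 11.7 and 5.94 FPKM. Transcripts of lineage markers were present in each library despite the gate: Cd3e had 57.7 FPKM in CD2-Ostm1 gl/gl, 107 in gl/gl and 77.3 in wild type, and Itgam, an integrin of myeloid cells, had 6.35, 75.2 and 5.72 FPKM. The libraries differed in sex-linked RNA as well, since the Y-linked Eif2s3y had 0.0395 FPKM in CD2-Ostm1 gl/gl, 59.8 in gl/gl and 0.0338 in wild type. In the comparisons that use the gl/gl library without the transgene, the sex of the pooled mice and the genotype therefore cannot be told apart. A single fragment on 1 kb of transcript was worth roughly 0.035, 0.031 and 0.021 FPKM in CD2-Ostm1 gl/gl, gl/gl and wild type, estimated from the lowest values.

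In the gl/gl library all 8 members had a higher value than in both other libraries. On the scale of log2(FPKM + 1), 6 of the 8 were at least 2-fold higher in gl/gl than in wild type and none was 2-fold lower, beside 8.16% higher and 6.15% lower among all 12849 measured genes. Measured genes are those that reached 1 FPKM in any library. The shares of all measured genes given in this paragraph are also the background for each list count below. Every list count below uses the same scale of log2(FPKM + 1). Ms4a3 and Ms4a7 passed this filter only through the gl/gl library. Of the 6 members at 1 FPKM or more in all 3 libraries, 5 were at least 2-fold higher in gl/gl than in wild type. Of the same 6, 4 were at least 2-fold lower in CD2-Ostm1 gl/gl than in gl/gl. No share over all genes at 1 FPKM or more in all 3 libraries was taken to set beside these counts. The median log2 fold change was 1.41 over the 8 members and -0.03 over all measured genes. In CD2-Ostm1 gl/gl against wild type none of the 8 reached 2-fold in either direction, where 1.34% of measured genes were higher and 1.67% lower, and the median was 0.01 over members and -0.04 over all measured genes. Against gl/gl, the CD2-Ostm1 gl/gl library had 6 members at least 2-fold lower and none higher, where 9.82% of measured genes were lower and 6.47% higher, with a median of -1.17 over members and 0.02 over all measured genes. That count of 6 was 3 with a pseudocount of 5 in place of 1, where Ms4a1, Ms4a3 and Ms4a7 had log2 fold changes of -0.89, -0.80 and -0.34. The comparisons share libraries and are not independent of each other, since both gl/gl genotypes were set against the same wild type library.

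**Figure D1:**
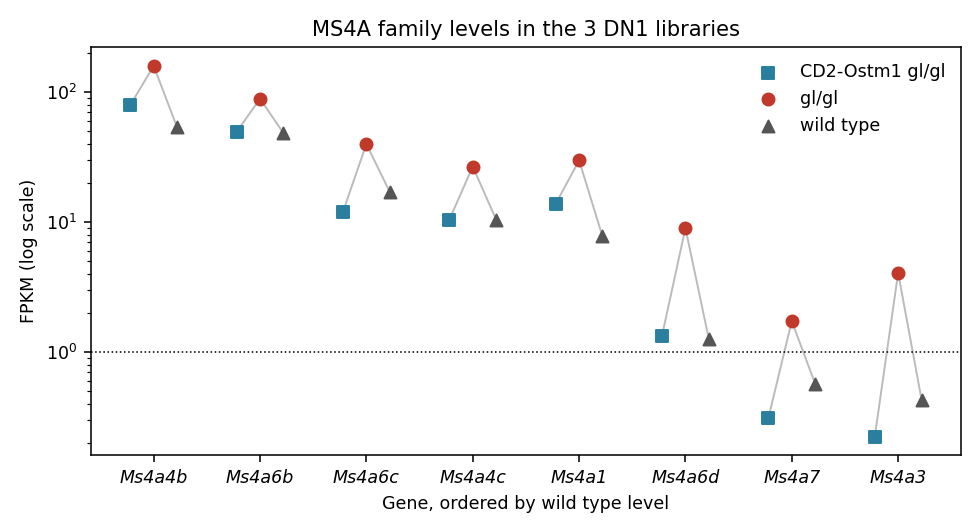
Levels of the 8 MS4A genes in FPKM (log axis), with 1 point for each library: CD2-Ostm1 gl/gl (squares), gl/gl (circles) and wild type (triangles); lines join the points of a gene and the dotted line marks 1 FPKM. The gl/gl point is the highest for every gene, and Ms4a3 and Ms4a7 reach 1 FPKM in gl/gl alone.

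Summed over the 8 genes, the family had 167 FPKM in CD2-Ostm1 gl/gl, 359 in gl/gl and 139 in wild type. The sum in gl/gl was 2.57 times the wild type sum, and the sum in CD2-Ostm1 gl/gl was 1.20 times the wild type sum. FPKM is scaled for transcript length, so levels of different genes are set side by side here. Such comparisons are approximate, since the annotation behind the lengths is not stated and close copies share some sequence. Ms4a4b and Ms4a6b were the most abundant members in every library and together made up 77.1% of the sum in CD2-Ostm1 gl/gl, 69.0% in gl/gl and 73.1% in wild type. Ms4a4b alone held 47.5%, 44.2% and 38.4%. Ms4a6c, Ms4a4c and Ms4a1 followed in an order that differed between libraries: Ms4a1 stood above both others in CD2-Ostm1 gl/gl, between Ms4a6c and Ms4a4c in gl/gl and below both in wild type. Ms4a6d came next in each library, and Ms4a7 and Ms4a3 came last. With 1 library per genotype, it cannot be said which neighbours in these orders differ beyond the spread between mice.

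The B cell member, Ms4a1 (chromosome 19, 11196817 to 11299884, mm10), had 13.8 FPKM in CD2-Ostm1 gl/gl, 29.8 in gl/gl and 7.77 in wild type. For CD2-Ostm1 gl/gl over wild type its log2 fold change was 0.76 and its FPKM ratio 1.78, under 2-fold on both scales, and the log2 fold change exceeded that of 97.0% of measured genes. The gl/gl library exceeded wild type by 1.81 on the log2 scale, an FPKM ratio of 3.84, and CD2-Ostm1 gl/gl lay below gl/gl by a log2 fold change of -1.06. The interval given for Ms4a1 is shared in the table with Ms4a5 and 4930526L06Rik, both listed at 0 in all 3 libraries.

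Other B cell genes differed alongside Ms4a1. Of 12 listed B cell markers, all measured, 8 were at least 2-fold higher in gl/gl than in wild type and none was lower. Among all measured genes these shares were 8.16% and 6.15%. The list summed to 136, 276 and 138 FPKM in CD2-Ostm1 gl/gl, gl/gl and wild type, sums in which Blk weighs heavily. Cd79a, a signalling chain of the B cell receptor, had 16.3 FPKM in CD2-Ostm1 gl/gl, 57.3 in gl/gl and 7.90 in wild type. In CD2-Ostm1 gl/gl against wild type, 2 markers were at least 2-fold higher, among them Pax5, a transcription factor of B cells. Blk, a kinase also used by other lymphocytes, was 2-fold lower at 39.5 FPKM against 81.5. Every other marker of the list was higher in CD2-Ostm1 gl/gl than in wild type, and the list median of log2 fold changes was 0.74. No B cell marker of the list was at 0 in any library. The part of these markers in the values of Ms4a1 was not tested, and in pooled bulk RNA more cells of a type and more RNA per cell cannot be told apart, here or for any gene below.

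Ms4a4b (chromosome 19, 11443558 to 11463548), the member known from T cells and natural killer cells, had 79.4 FPKM in CD2-Ostm1 gl/gl, 159 in gl/gl and 53.5 in wild type. These levels lay at the percentiles 93.6, 96.7 and 87.8 of all measured genes in the 3 libraries. The log2 fold change was 1.55 for gl/gl over wild type and 0.56 for CD2-Ostm1 gl/gl over wild type, and at -0.99 for CD2-Ostm1 gl/gl over gl/gl it fell just short of the 2-fold line. Of 10 natural killer markers 7 were at least 2-fold higher in gl/gl than in wild type and none lower, beside 8.16% and 6.15% of measured genes. They summed to 437, 1089 and 506 FPKM in CD2-Ostm1 gl/gl, gl/gl and wild type. Of 11 T cell markers none was higher and 2, Cd8a and Cd8b1, were lower, with sums of 821, 1038 and 1029 FPKM. In CD2-Ostm1 gl/gl, 2 natural killer markers (Klrb1c and Gzmb) were at least 2-fold lower than in wild type and none was 2-fold higher. No T cell marker reached 2-fold there. Ms4a4b, at 79.4 FPKM against 53.5, was itself under 2-fold. The natural killer gene Ncr1 had a log2 fold change of 0.64 in this comparison, while the list medians were -0.23 for natural killer and -0.10 for T cell markers. No marker of either list was at 0, and the part of these cells in the level of Ms4a4b was not tested.

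Its close copy Ms4a4c (chromosome 19, 11407661 to 11427246) was less abundant. It had 10.4 FPKM in CD2-Ostm1 gl/gl, 26.8 in gl/gl and 10.5 in wild type. CD2-Ostm1 gl/gl and wild type were almost equal, with an FPKM ratio of 0.997. The gl/gl library was higher than wild type by 1.28 on the log2 scale. The FPKM ratio of CD2-Ostm1 gl/gl to wild type was 1.48 for Ms4a4b, and the FPKM ratio of Ms4a4b to Ms4a4c was 7.61 in CD2-Ostm1 gl/gl, 5.93 in gl/gl and 5.12 in wild type.

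Ms4a6b (chromosome 19, 11518559 to 11530403) had 49.4 FPKM in CD2-Ostm1 gl/gl, 88.8 in gl/gl and 48.3 in wild type. Its log2 fold change for gl/gl over wild type was 0.86, under 2-fold, and that for CD2-Ostm1 gl/gl over wild type was 0.03. Ms4a6c (chromosome 19, 11469368 to 11482196) had 12.0 FPKM in CD2-Ostm1 gl/gl, 39.8 in gl/gl and 17.0 in wild type. Its log2 fold change for CD2-Ostm1 gl/gl over wild type was -0.47, under 2-fold, with an FPKM ratio of 0.707, and it exceeded wild type by 1.18 in gl/gl. The FPKM ratio of Ms4a6b to Ms4a6c was 4.11 in CD2-Ostm1 gl/gl, 2.23 in gl/gl and 2.83 in wild type.

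Both pairs are close copies, and how far the values of a pair can be separated depends on how much transcript sequence the copies share. Among the 28 pairs of members, the coding sequences of Ms4a4b and Ms4a4c were 91.7% identical, those of Ms4a6b and Ms4a6c 86.4%, those of Ms4a6b and Ms4a6d 81.8% and those of Ms4a6c and Ms4a6d 79.6%, while the other 24 pairs lay between 60.8% and 68.9%. The longest stretch of transcript shared without a mismatch was 127 bases for Ms4a4b and Ms4a4c and 96 bases for Ms4a6b and Ms4a6c. Of all windows of 50 bases, 8.48% of those of Ms4a4c and 4.19% of those of Ms4a4b occurred in another MS4A transcript, and 6.08% of those of Ms4a6c, 5.66% of those of Ms4a6b and 2.92% of those of Ms4a6d. Ms4a1, Ms4a3 and Ms4a7 had no such window. The values within each pair are uncertain to the extent that reads from shared stretches were split between copies.

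The upstream windows of the copies also resembled each other, and those of both pairs are printed here to show where they match. RefSeq promoter windows (GRCm38.p6, 250 bases before to 50 bases after the start of a gene) were found for 6 of the 8 members, all but Ms4a1 and Ms4a6d. For Ms4a4b and Ms4a4c, 282 bases could be aligned and 80.9% of them were identical, and for Ms4a6b and Ms4a6c 220 bases with 85.9% identical. The windows are chr19:11443308-11443607 for Ms4a4b, chr19:11407411-11407710 for Ms4a4c, chr19:11518309-11518608 for Ms4a6b and chr19:11469118-11469417 for Ms4a6c, all on the plus strand. Capitals mark matches on either strand to GAGGAA, a core of PU.1 sites, to AGGAAGT, an ETS motif, and to GAAANNGAA, a short form of the interferon response element. AGGAAGT and GAGGAA share the letters AGGAA and can overlap.
Ms4a4b: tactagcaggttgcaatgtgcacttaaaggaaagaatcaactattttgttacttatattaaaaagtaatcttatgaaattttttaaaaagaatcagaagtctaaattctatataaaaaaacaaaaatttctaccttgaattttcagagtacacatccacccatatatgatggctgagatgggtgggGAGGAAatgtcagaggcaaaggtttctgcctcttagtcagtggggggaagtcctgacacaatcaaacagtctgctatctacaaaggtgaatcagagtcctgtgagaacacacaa
Ms4a4c: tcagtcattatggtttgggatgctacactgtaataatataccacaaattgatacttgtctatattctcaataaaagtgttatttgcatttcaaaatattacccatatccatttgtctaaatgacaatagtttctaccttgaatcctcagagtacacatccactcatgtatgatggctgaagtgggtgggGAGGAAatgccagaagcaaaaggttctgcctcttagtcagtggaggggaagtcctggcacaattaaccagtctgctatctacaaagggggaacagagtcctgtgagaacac
Ms4a6b: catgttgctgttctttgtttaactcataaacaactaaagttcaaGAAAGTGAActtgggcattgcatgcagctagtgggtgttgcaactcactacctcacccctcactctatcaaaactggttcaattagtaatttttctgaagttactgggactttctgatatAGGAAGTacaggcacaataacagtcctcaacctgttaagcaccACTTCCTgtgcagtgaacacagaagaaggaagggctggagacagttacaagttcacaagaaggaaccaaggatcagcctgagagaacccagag
Ms4a6c: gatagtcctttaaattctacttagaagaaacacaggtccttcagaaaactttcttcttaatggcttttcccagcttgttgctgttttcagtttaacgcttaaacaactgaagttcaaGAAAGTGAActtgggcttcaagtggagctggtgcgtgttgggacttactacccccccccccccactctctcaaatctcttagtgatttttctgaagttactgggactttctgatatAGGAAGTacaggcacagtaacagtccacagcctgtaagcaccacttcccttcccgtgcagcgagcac

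Ms4a4b and Ms4a4c each held GAGGAA in the same surrounding letters, from base 187 and base 190 of the window. Ms4a6b and Ms4a6c each held GAAANNGAA, from base 45 and base 118, and AGGAAGT, from base 165 and base 234, and Ms4a6b held a further AGGAAGT on the other strand from base 208. The motif GAGGAA was present in 4 of the 6 windows (Ms4a3, Ms4a4b, Ms4a4c and Ms4a7) and in 28.3% of all 32851 promoter windows. AGGAAGT was present in 2 of the 6 and in 9.35% of all windows, and GAAANNGAA in 3 of the 6 (Ms4a6b, Ms4a6c and Ms4a7) and in 8.56% of all. The motifs were chosen after the sequences had been read, and a match describes letters only.

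Ms4a3, Ms4a6d and Ms4a7, which are grouped here as myeloid genes, were the least abundant members in each library. Whether other members are also expressed in myeloid cells was not tested. Among the members, Ms4a3 and Ms4a6d had the highest FPKM ratios of gl/gl to wild type, 9.41 and 7.10. Ms4a6d (chromosome 19, 11586606 to 11604804), which mouse macrophages express, had 1.35 FPKM in CD2-Ostm1 gl/gl, 8.99 in gl/gl and 1.27 in wild type. The first and last library were close and the gl/gl library stood apart, with a log2 fold change over wild type of 2.14, above that of 97.9% of measured genes. With pseudocounts of 0.1 and 5 it was 2.73 and 1.16. Ms4a7 (chromosome 19, 11321039 to 11336146), a macrophage gene, had 0.314 FPKM in CD2-Ostm1 gl/gl, 1.73 in gl/gl and 0.572 in wild type. Its FPKM ratio was 3.03 for gl/gl to wild type and 0.549 for CD2-Ostm1 gl/gl to wild type, while its log2 fold change of 0.80 for gl/gl over wild type stayed under 2-fold because the scale of log2(FPKM + 1) compresses low values. The 3 levels correspond to roughly 12.3, 77.0 and 37.5 fragments.

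Ms4a3 (chromosome 19, 11629497 to 11640834), the marker of granulocyte and monocyte progenitors, had 0.224 FPKM in CD2-Ostm1 gl/gl, 4.08 in gl/gl and 0.434 in wild type. Its low values in CD2-Ostm1 gl/gl and wild type rest on roughly 5.20 and 16.7 fragments and the gl/gl value on 107, so the order of CD2-Ostm1 gl/gl and wild type is weakly supported by counting alone. The log2 fold change was 1.82 for gl/gl over wild type and -2.05 for CD2-Ostm1 gl/gl over gl/gl. Both depended on the pseudocount of 1: they were 2.97 and -3.69 with a pseudocount of 0.1, and 0.74 and -0.80, under 2-fold, with one of 5. The FPKM ratio of CD2-Ostm1 gl/gl to wild type was 0.517.

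**Figure D2:**
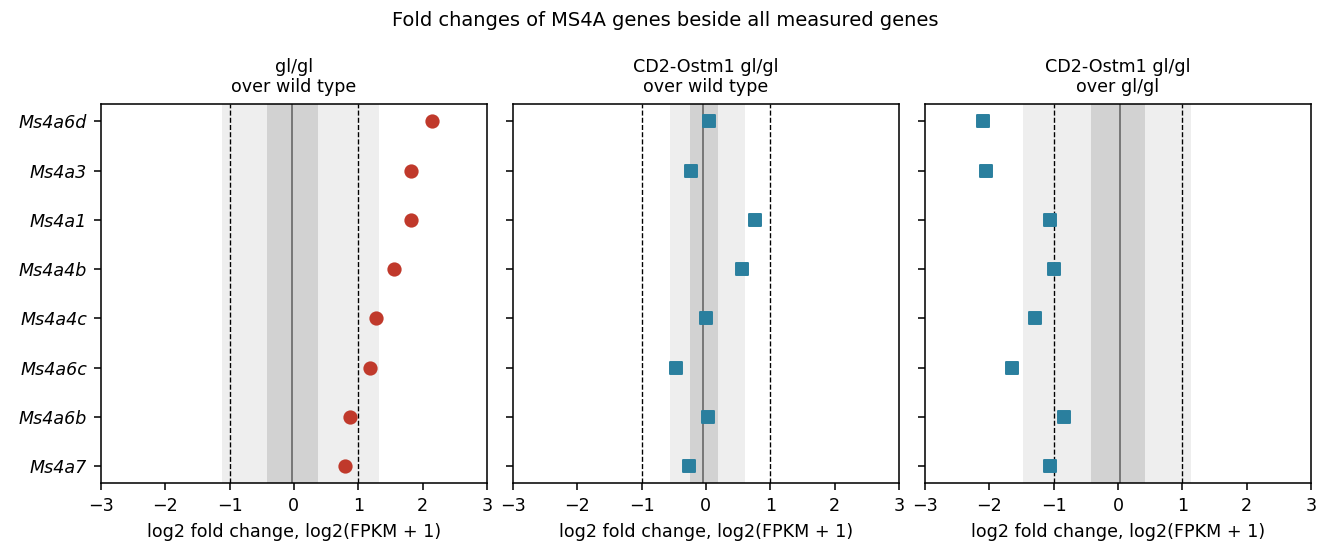
Log2 fold changes of the 8 members on the scale of log2(FPKM + 1) in the 3 comparisons, 1 point per gene; the dark and light bands span the 25th to 75th and the 5th to 95th percentile of all 12849 measured genes, the grey line is their median, and dashed lines mark 2-fold. In gl/gl over wild type the points run from 0.80 to 2.14, in CD2-Ostm1 gl/gl over wild type from -0.47 to 0.76, and in CD2-Ostm1 gl/gl over gl/gl from -2.09 to -0.83.

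Myeloid markers differed in the same libraries as these 3 genes. Of 14 measured markers of monocytes and macrophages 10 were at least 2-fold higher in gl/gl than in wild type and none lower. Among all measured genes these shares were 8.16% and 6.15%. The 14 summed to 224, 1733 and 301 FPKM in CD2-Ostm1 gl/gl, gl/gl and wild type. Some of these 10, among them Fcgr1 and Emr1, reached 1 FPKM only in gl/gl. Lyz2, lysozyme, had 71.3, 1038 and 91.7 FPKM. In CD2-Ostm1 gl/gl against wild type 2 monocyte and macrophage markers were at least 2-fold lower and none higher: the complement gene C1qa had 2.38 FPKM in CD2-Ostm1 gl/gl, 20.7 in gl/gl and 8.12 in wild type, and C1qc had 1.89, 21.3 and 8.67 FPKM. All 10 measured markers of mature granulocytes were higher in gl/gl than in wild type, with sums of 246, 29150 and 239 FPKM, and Mmp8 reached 1 FPKM only there. In CD2-Ostm1 gl/gl 1 of these 10, the chemokine receptor gene Cxcr2, was at least 2-fold higher than in wild type and none was lower, and Cxcr2 had 7.57, 65.1 and 2.97 FPKM. The list of granulocyte progenitor genes was mixed and summed to 207, 68.8 and 180 FPKM: Elane, Prtn3 and Cebpe were higher in gl/gl, as Ms4a3 was, whereas Mpo and Ctsg were lower. Elane and Cebpe reached 1 FPKM only in gl/gl. No gene of this list differed by 2-fold between CD2-Ostm1 gl/gl and wild type on the scale of log2(FPKM + 1). Cebpe had 0.498 FPKM in the former and 0.214 in the latter. Elane, neutrophil elastase, had 0.287 FPKM in CD2-Ostm1 gl/gl, 6.82 in gl/gl and 0.424 in wild type, the same order as Ms4a3. Its log2 fold change for gl/gl over wild type was 2.46, beside 1.82 for Ms4a3. Mpo, myeloperoxidase, had 180, 9.71 and 152 FPKM. None of these myeloid markers was at 0 in any library, and their part in the values of Ms4a3, Ms4a6d and Ms4a7 was not tested.

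**Figure D3:**
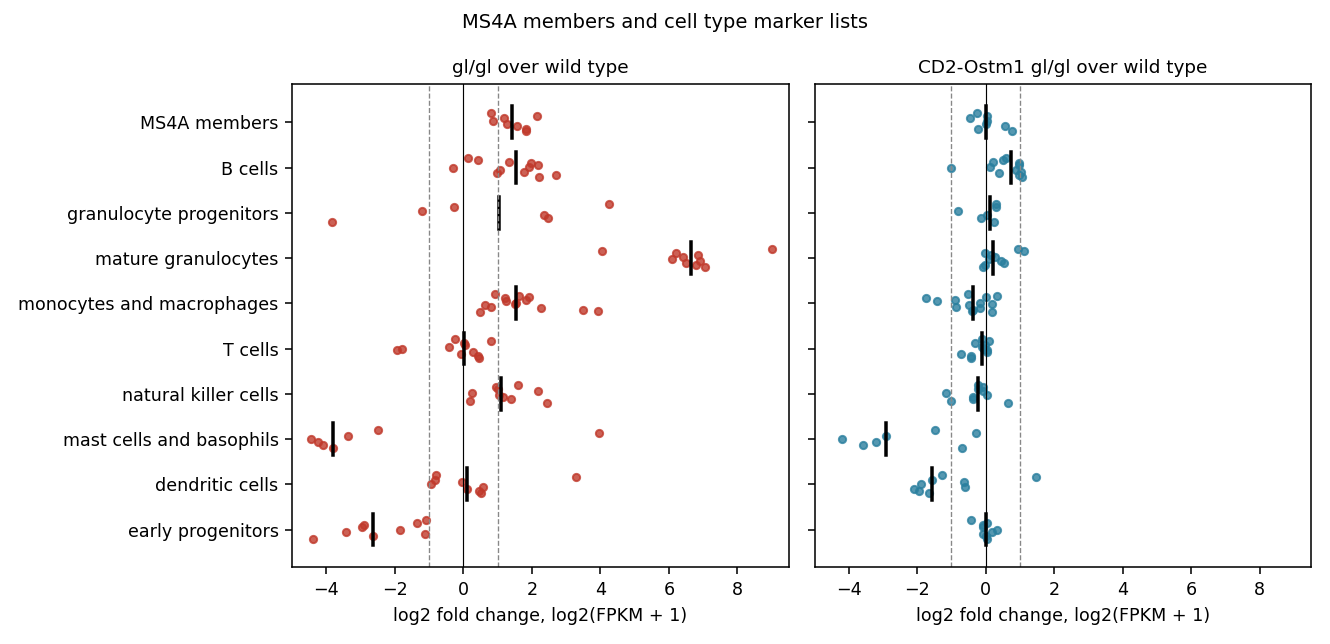
Log2 fold changes on the scale of log2(FPKM + 1) for the 8 MS4A members and for the measured members of 9 marker lists, 1 point per gene with the list median as a black bar, in gl/gl over wild type (left) and CD2-Ostm1 gl/gl over wild type (right); dashed lines mark 2-fold. The MS4A median is 1.41 at the left and 0.01 at the right, beside 6.65 and 0.21 for mature granulocytes, 1.52 and -0.38 for monocytes and macrophages, and 1.55 and 0.74 for B cells.

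The remaining marker lists differed in other ways. All 9 early progenitor genes were at least 2-fold lower in gl/gl than in wild type, where 6.15% of measured genes were lower. Their sums were 477, 88.8 and 481 FPKM in CD2-Ostm1 gl/gl, gl/gl and wild type. None differed by 2-fold between CD2-Ostm1 gl/gl and wild type. Of 9 dendritic cell genes 1 was higher in gl/gl (Siglech) and none lower, with sums of 287, 1320 and 950 FPKM, and in CD2-Ostm1 gl/gl 6 were lower than in wild type and 1, Siglech again, was higher, at a log2 fold change of 1.47. Of the 6, Clec9a reached 1 FPKM only in wild type.

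Of the other 8 table rows with an Ms4a symbol, 2 were measured. Ms4a2, the IgE receptor beta chain, had 1.08 FPKM in CD2-Ostm1 gl/gl, 0.821 in gl/gl and 2.23 in wild type. It was the measured Ms4a gene with its highest value in wild type, with a log2 fold change of -0.83 for gl/gl and -0.63 for CD2-Ostm1 gl/gl over wild type, both under 2-fold on this scale. The FPKM ratios to wild type were 0.368 for gl/gl and 0.486 for CD2-Ostm1 gl/gl, both past 2-fold, and the 3 levels correspond to roughly 67.9, 58.1 and 233 fragments in CD2-Ostm1 gl/gl, gl/gl and wild type. Mast cell and basophil markers were lower in both as well: of 7 measured, 6 were at least 2-fold lower in gl/gl and 1, Hdc, was higher, and 5 were lower and none higher in CD2-Ostm1 gl/gl. Mcpt4, Cma1 and Tpsb2, lower in both, reached 1 FPKM only in wild type. The 9 markers in the table, measured or not, summed to 45.8, 39.3 and 144 FPKM in CD2-Ostm1 gl/gl, gl/gl and wild type. Fcer1a, the alpha chain of the IgE receptor, had a value of 0 in both gl/gl libraries and 0.889 FPKM in wild type. Tpsab1 was listed at 0 in both as well, and Tpsb2 in gl/gl. The part of mast cells and basophils in the values of Ms4a2 was not tested.

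Ms4a8a, listed at 0 in CD2-Ostm1 gl/gl, had 4.18 FPKM in gl/gl and 0.0249 FPKM in wild type, which corresponds to about 119 fragments in gl/gl and 1.05 in wild type. It passed the filter only through gl/gl. The other 6 rows stayed under 1 FPKM in each library: Ms4a4d had 0.0273 FPKM in CD2-Ostm1 gl/gl, 0.326 in gl/gl and 0.111 in wild type, Ms4a10 and Ms4a15 had at most 0.0816 and 0.157 FPKM, and Ms4a5, Ms4a13 and Ms4a18 were listed at 0 in all 3. The related genes Tmem176a and Tmem176b, membrane proteins of the same superfamily, had 40.3 and 76.1 FPKM in CD2-Ostm1 gl/gl, 76.6 and 97.5 in gl/gl, and 72.8 and 102 in wild type. Both were thus nearly level between gl/gl and wild type, with log2 fold changes of 0.07 and -0.06.

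All Ms4a rows lie in 1 stretch of 679 kb on chromosome 19 (10962295 to 11640834), which holds 21 table rows, 12 of them measured. Ms4a4c, Ms4a4b, Ms4a6c and Ms4a6b lie next to each other with 1 predicted gene between them, while the low Ms4a6d, Ms4a2 and Ms4a3 follow at the far end. Ms4a2, whose gl/gl value was below that of wild type, lies between Ms4a6d and Ms4a3, which had the highest FPKM ratios of gl/gl to wild type among the 8 members. Just before the cluster, Zp1, Ccdc86 and Gpr44 had log2 fold changes of -0.82, -0.55 and -0.66 for gl/gl over wild type. For CD2-Ostm1 gl/gl over wild type they had -0.94, -0.74 and -1.63, the last past 2-fold. The same interval is given for Ccdc86 and Gpr44. Just after the cluster, Plac1l and Gm97 were listed at 0 and Oosp1 had less than 1 FPKM in each library.

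**Figure D4:**
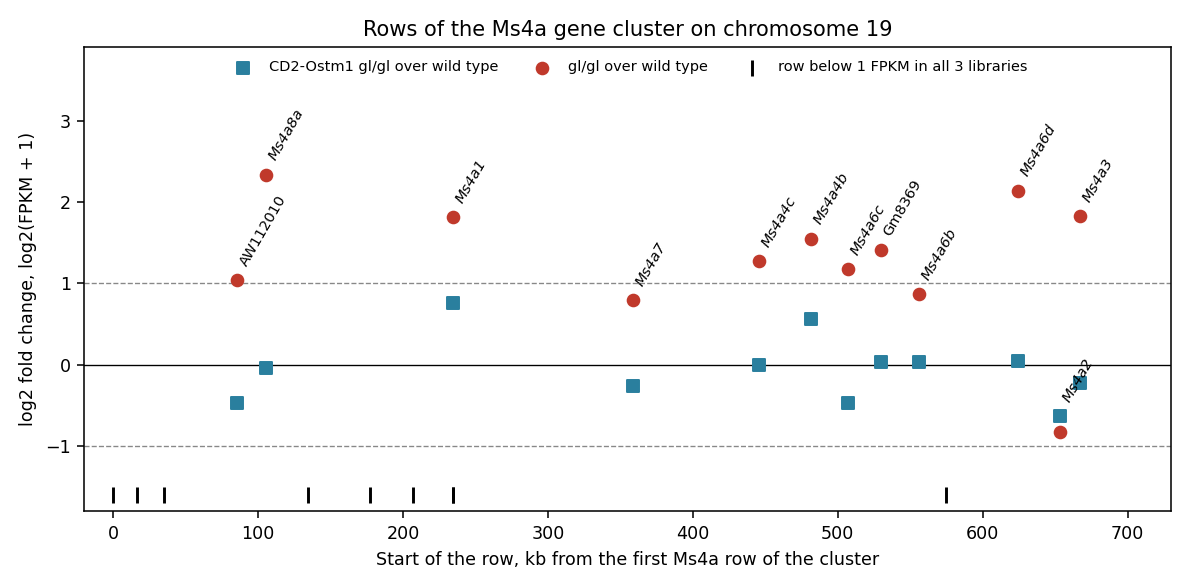
Log2 fold changes on the scale of log2(FPKM + 1) of the 12 measured rows inside the Ms4a cluster against the distance of each row's start from the first Ms4a row, in kb; circles are gl/gl over wild type, squares CD2-Ostm1 gl/gl over wild type, ticks at the foot mark rows under 1 FPKM in all 3 libraries (some overlap) and dashed lines mark 2-fold. All measured rows except Ms4a2 lie above 0 for gl/gl, and Ms4a2 lies at -0.83.

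Most measured receptors and adaptors described as partners of MS4A proteins were higher in gl/gl than in wild type. Of 9 listed, 7 were measured, and 6 of these were at least 2-fold higher in gl/gl than in wild type and none lower, beside 8.16% of all measured genes. One of the 6, Trem2, a receptor of macrophages, passed the filter only through gl/gl, with 0.0392 FPKM in CD2-Ostm1 gl/gl, 1.70 in gl/gl and 0.161 in wild type. On the scale of log2(FPKM + 1), none of the 7 differed from wild type by 2-fold in CD2-Ostm1 gl/gl, where Trem2 was at -0.16. Tyrobp, the DAP12 signalling adaptor, had 134 FPKM in CD2-Ostm1 gl/gl, 528 in gl/gl and 141 in wild type. Fcer1g, the shared gamma chain of Fc receptors, had 28.8, 210 and 37.0 FPKM, and Tnfrsf18, the GITR co-receptor that Ms4a4b associates with in mouse T cells, had 29.4, 73.8 and 29.2 FPKM. Syk, the kinase that binds the gamma chain, was the exception, with 45.2, 41.0 and 39.4 FPKM. Vsig4 and Fcer1a were not measured. Several of these genes are themselves myeloid genes.

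Genes with the nearest pattern were sought for the 6 members that reached 5 FPKM, among 9288 other genes at that level. Nearness was the distance between the pairs of log2 fold changes (gl/gl and CD2-Ostm1 gl/gl, each over wild type). Predicted genes, clones, small RNAs, ribosomal protein genes, pseudogenes and all symbols starting with Rn were left out by a symbol pattern. AW112010 and Gm8369 inside the Ms4a cluster were left out too, so the counts below cover the 9288 genes only. This likeness rests on 3 libraries, so many genes can be close. For Ms4a1 13 genes lay within 0.25 and the nearest were Tmem163, Pde1b and Ctla4, at distances of 0.10, 0.10 and 0.11. For Ms4a4b 30 genes lay as near, among them Inpp4a and Tlr9. Ms4a6d had 31, led by Mxd1, Emr4 and Grina, and Ms4a6c 66, led by Ctsl, Sntb2 and Fam214b. Ms4a4c had 127, led by Prrt1, Pdcd1lg2 and Ifngr1. Ms4a6b had 286, led by Tmcc1, Ly75 and H2-Ob, the most of the 6 members.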

How the data were processed

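RNA of sorted DN1 cells was sequenced in 3 libraries, 1 per genotype, each from pooled mice. The submitters' processing notes name TopHat2 (2.0.10), Cuffdiff (2.2.1) and mm10; annotation, strand setting and library scaling are not stated there. The deposited values are taken as FPKM, which Cuffdiff writes, since the table header names no unit. Columns were matched to libraries by name. Of 23352 lines, 1 was empty, 3 held a cell that was no number and 23348 were used; positions were converted to count from 1.

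Fold changes are differences of log2(FPKM + 1), called at 2-fold, among genes that reach 1 FPKM in any library. With 1 library per genotype no test was run. Fragment numbers are rough and cover counting error only. The commonest lowest value of genes with a single annotated transcript was taken as 1 fragment, assuming fragments of 200 bases. For each Ms4a gene the longest GENCODE M21 coding transcript was assumed. For Ms4a2 this transcript has 2391 bases, of which 375 are coding, and its fragment numbers depend on that choice. Coding sequences and promoters were aligned with Biopython 1.88.

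The members, marker lists and alternatives were chosen with earlier results of these data known. The text names the 8 members, other Ms4a rows at 1 FPKM or more, the 3 genes nearest to each member at 5 FPKM or more, up to 3 abundant genes of each list, and up to 3 genes on each side of the cluster. Other names, among them Elane, Blk, C1qa, C1qc, Syk, the Tmem176 genes, genes that passed the filter through 1 library, rows under 1 FPKM and genes that spell out a small count, were chosen after their values were seen. Some genes that meet this rule are left out of the text.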

Additional observations from a re-analysis of the deposited data

How the results depend on the processing

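No paired analysis was possible because each genotype has 1 library. The alternatives were pseudocounts of 0.1 and 5, no filter, a filter of 5 FPKM, and rescaling each library by its median gene ratio, and none reversed a member's called difference. With a pseudocount of 5, which compresses low values by construction, 3 in place of 6 members were at least 2-fold lower in CD2-Ostm1 gl/gl than in gl/gl, and the member median there was -0.92. Ms4a1, Ms4a3 and Ms4a7 lost that call, and Ms4a3 its call in gl/gl over wild type, at 0.74. With a pseudocount of 0.1, Ms4a7 reached 2-fold in gl/gl over wild type, at 1.45. Of 114 such values for single members, 109 kept direction and side of the 2-fold line, but many of these could not change. A filter leaves a member's fold change as it is, and the rescaling factors were only 1.002 to 1.007. The values that changed side, 4 weaker and 1 stronger, all came with a changed pseudocount. Counts over all genes moved with the pseudocount. At 5, gl/gl over wild type had 520 genes higher and 347 lower (1048 and 790 at 1), CD2-Ostm1 gl/gl over wild type 49 and 91 (172 and 215), and CD2-Ostm1 gl/gl over gl/gl 297 and 633 (831 and 1262). At 0.1, CD2-Ostm1 gl/gl over wild type had 505 higher and 425 lower, which turns the balance, and CD2-Ostm1 gl/gl over gl/gl 1308 higher. Depth limits Ms4a3 and Ms4a7, and no spread between mice can be given for any value.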

Other observations

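Other rows inside the Ms4a cluster were also highest in gl/gl. AW112010, a long non-coding RNA gene, had 91.1 FPKM in CD2-Ostm1 gl/gl, 262 in gl/gl and 127 in wild type, with a log2 fold change of 1.04 for gl/gl over wild type. Gm8369, a predicted protein-coding gene between Ms4a6c and Ms4a6b, had 1.88, 6.44 and 1.81 FPKM and a log2 fold change of 1.41. Both genes were singled out after their values were seen.

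Interferon response genes also differed in the gl/gl library. Of 12 measured, 9 were at least 2-fold higher in gl/gl than in wild type and none lower, beside 8.16% and 6.15% of all measured genes. None reached 2-fold in CD2-Ostm1 gl/gl over wild type, where only 1.34% of all measured genes were higher and 1.67% lower. Bst2, tetherin, had 62.4 FPKM in CD2-Ostm1 gl/gl, 169 in gl/gl and 58.9 in wild type, and Irf7, a transcription factor of interferon induction, had 33.8, 126 and 35.2 FPKM. The list summed to 237, 624 and 228 FPKM, and its part in the values of the MS4A genes was not tested.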
